A study of Mus musculus with 8 samples.

Results

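Potassium channel genes outside the Kv4 complex were examined in chromatin accessibility maps of cerebellar granule neuron progenitors (GNPs) that differed in Chd7. These genes were chosen by name as the autosomal protein-coding genes of the GENCODE mouse annotation (mm10) whose symbols begin with Kcn, without the Kv4 pore genes (Kcnd) and their Kcnip partners, which left 86 of 20807 autosomal protein-coding genes. The assay was ATAC-seq, where Tn5 transposase cuts open DNA and leaves sequencing adapters in it, on GNPs freshly isolated at postnatal day 7 from cerebella of the strain given as C56Bl6/J. The 8 libraries carried the Chd7 genotypes wild type (WT, 3 libraries), het (2 libraries) and mutant (3 libraries), with no treatment in any group. The study's GNPs came from mice with floxed Chd7 alleles, written Chd7 f/f for WT, Atoh1-Cre::Chd7 f/+ for heterozygotes and Atoh1-Cre::Chd7 f/f for homozygous mutants. Atoh1-Cre acts in the granule cell lineage. The study found Chd7 protein left in the posterior lobe and calls weaker recombination there a probable reason, so mutant cell preparations may hold cells that kept Chd7. The study calls its WT and mutant ATAC-seq replicates technical. Chd7 encodes an ATP-dependent chromatin remodelling enzyme.

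Potassium channels set the resting potential of a neuron and return its membrane to rest after each action potential. Pore proteins assemble into voltage-gated (Kv), inwardly rectifying, two-pore-domain and calcium- or sodium-activated channels, and auxiliary proteins adjust their gating and traffic to the membrane. Mature cerebellar granule cells are known for a leak conductance carried by the two-pore channels of Kcnk3 and Kcnk9 and for G protein-gated inward rectifiers that contain the product of Kcnj6, the gene mutated in the weaver mouse. The progenitors still divide, and most of these channels are put to use after the cells leave the cell cycle.

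Only 1 list of peaks per genotype was used, in which the authors had pooled all libraries of that genotype. Replicate errors can therefore not be given below, and whether the genotypes differ by more than their libraries do could not be tested. Shares are given with Wilson 95% intervals over peaks or genes, and ratios with exact 95% intervals on their tag counts. Both cover counting error only, because neighbouring peaks and PCR copies of a fragment are not independent. The lists rested on 50394313 tags for WT, 30923002 for het and 51030229 for mutant, and had 152984, 106974 and 174407 peaks. The het list was called from another alignment with tags extended to 200 bp, in place of 90 bp for WT and 88 bp for mutant, so heights in het were not compared with the others. Tag size was 107 bp in WT and 76 bp in mutant, and its part in the differences below was not tested. All 11 marker genes of GNPs that were looked up, such as Atoh1, Pax6 and Zic1, had a promoter peak in each list. Promoter peaks were also seen at marker genes of other cell types, for instance at 4 of 5 Purkinje cell genes in each list, at 3 of 5 astrocyte genes in WT and 4 in the others, and at 2 of 4 microglial genes in WT and 1 in the others, so a promoter peak did not by itself mark the cell type.

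A peak belonged to a gene when it touched the gene body, the 5000 bp upstream or the 1000 bp downstream. Potassium channel genes had 698 WT, 493 het and 766 mutant peaks, and no peak counted for more than 1 of them. A peak was found at 78 of the 86 genes in WT, at 76 in het and at 79 in mutant. Most of these genes therefore carried some open chromatin in progenitors. The same share was not computed over all protein-coding genes, so these counts do not set the family apart. Peak strength is expressed by a rank within the list, which runs to 100 and gives the percentage of that list's peaks with the same or a lower -log10 q. Peaks of these genes ranked at a median of 45.4 (WT), 47.8 (het) and 48.5 (mutant), close to the middle of each list. When peaks of the 3 lists were joined wherever they lay within 300 bp, the genes held 841 accessible regions. Introns held 662 of these regions (78.7%) and promoters 76, while 38 lay upstream, 29 in coding exons, 26 in untranslated exons and 10 downstream. A promoter region had a peak in all 3 lists in 84.2% of cases and an intronic region in 40.8%. These shares by location were not computed over all protein-coding genes.

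Promoters were compared first. A promoter peak was counted where a peak came within 500 bp of the start of a protein-coding transcript. WT promoter peaks were found at 68 of 86 potassium channel genes (79.1%, 69.3 to 86.3%), against 68.0% of all autosomal protein-coding genes. The count was 66 in het (76.7%, background 66.4%) and 70 in mutant (81.4%, background 68.7%). When only peaks whose -log10 q reached 5 were kept, 57 of the 86 genes had a WT promoter peak (66.3%, 55.8 to 75.4%, background 64.1%), 64 a het one (74.4%, background 63.8%) and 63 a mutant one (73.3%, 63.1 to 81.5%, background 65.3%), and the WT share was then close to that of all genes. Potassium channel promoters were less open than most where they were open. Their median rank was 77.9 (WT), 71.4 (het) and 75.5 (mutant), and that of all genes was 91.5, 89.2 and 92.6.

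The heights of these promoter peaks, in tags piled up at the summit, differed little between WT and mutant. Both lists had a promoter peak at 67 of the genes, and the median log2 ratio of mutant to WT height was -0.01 after scaling by tags and centring on all autosomal regions. The tallest promoter peak of each list was used, so the WT and mutant peaks of a gene did not have to overlap. Of the 67, 34 were lower in mutant by any amount (50.7%), against 55.5% of promoters of all genes. Kcnj2, a strong inward rectifier that holds the resting potential, had the tallest WT promoter peak, with 93 tags in WT and 99 in mutant. Kcnt2, a sodium-activated channel, had 91 and 105 tags. Kcnn2, a small-conductance calcium-activated channel, had 85 and 86. Its peak lay at another transcript start inside the gene, from 45558118 on chromosome 18 in WT, where the annotated gene begins at 45268860. These tall promoters kept their height in the mutant list to within the counting interval, as did Kcnj3, a subunit of G protein-gated inward rectifiers, at 83 and 85 tags, and Kcnab1, a cytoplasmic beta subunit of Kv1 channels, at 78 and 74. In het the same 5 promoters ranked between 93.2 and 99.8.

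**Figure D1:**
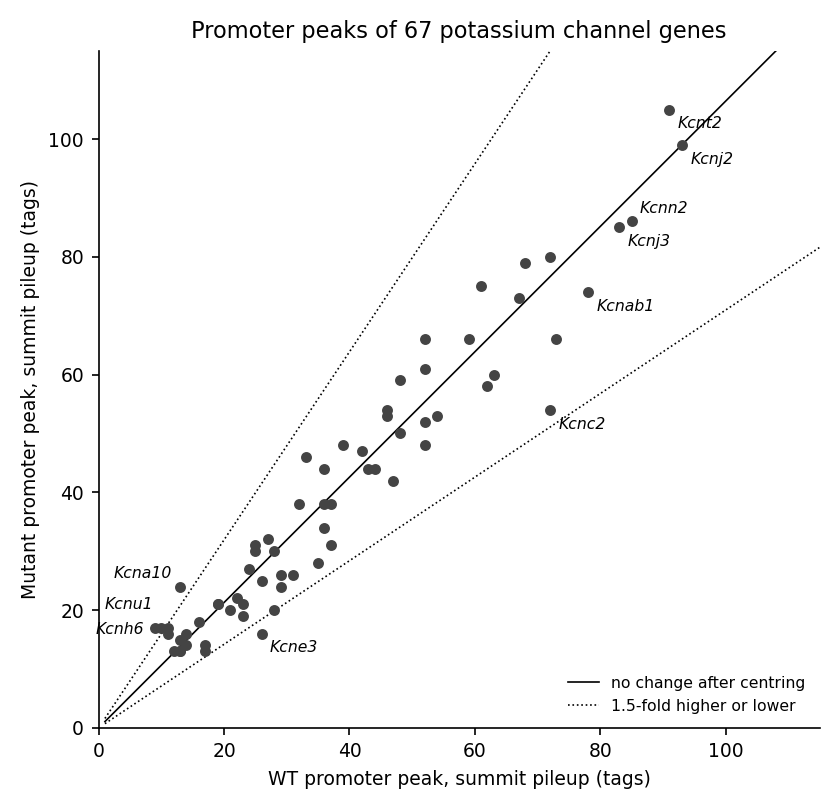
Summit pileup of the tallest promoter peak in the mutant list against that in the WT list, in tags. Each of the 67 potassium channel genes that had both is 1 point. The solid line marks no change after centring and the dotted lines 1.5-fold. Only Kcne3 lies below the lower dotted line, and Kcna10, Kcnh6 and Kcnu1 lie above the upper one at pileups of at most 24 tags.

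Only 1 of the 67 promoters was at least 1.5-fold lower in mutant, against 0.886% of promoters of all genes. At least 1.5-fold higher were 3 of the 67, against 0.857% of all. That larger share rests on promoter peaks of at most 24 tags. The lower one was that of Kcne3, an auxiliary subunit best known from epithelia, with 26 tags in WT and 16 in mutant. Its log2 ratio was -0.79, with a counting interval of -1.79 to 0.16 that includes no change. The higher ones were Kcnh6 (9 and 17 tags), Kcna10 (13 and 24 tags) and Kcnu1 (10 and 17 tags), and each of their intervals also includes no change. Among tall promoters, a peak of Kcnc2, a fast voltage-gated channel of the Kv3 group, had 72 tags in WT and 54 in mutant. Its log2 ratio was -0.51 (-1.04 to 0.02). This peak lay 44.2 kb inside the gene, at another transcript start, and was picked after its value was seen. The region over the annotated gene start of Kcnc2 had 46 tags in WT and 47 in mutant, a log2 ratio of -0.06. A few promoters had a peak in 1 of the 2 lists alone. Kcnj4 had one in WT at 14 tags and none in mutant, while Kcnk3, Kcnk15 and Kcnj15 had one in mutant at 17, 18 and 8 tags and none in WT. All of these were weak, with ranks of 56.1 or less in their own list.

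The promoter sequences of 4 genes with peaks in all lists are shown for their range of base composition, as the 250 bases before the RefSeq transcript start in GRCm38.p6, read 5' to 3' on the gene's strand. The stretches of Kcnt2, Kcnj2 and Kcnj3 lie inside a WT promoter peak, and that of Kcnj6 overlaps one in most of its length. Capitals mark exact matches, on either strand, to the E-boxes CAGCTG and CAGATG and to the GC box GGGCGG of Sp1. They come from chr1:140245468-140245717 on the plus strand for Kcnt2, chr11:111065914-111066163 on the plus strand for Kcnj2, chr2:55435720-55435969 on the plus strand for Kcnj3 and chr16:94997697-94997946 on the minus strand for Kcnj6.
Kcnt2: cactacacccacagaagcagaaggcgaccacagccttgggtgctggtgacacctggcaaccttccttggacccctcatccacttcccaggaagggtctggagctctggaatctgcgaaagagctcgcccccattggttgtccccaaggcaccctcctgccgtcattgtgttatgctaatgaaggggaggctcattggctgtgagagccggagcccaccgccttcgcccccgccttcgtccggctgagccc
Kcnj2: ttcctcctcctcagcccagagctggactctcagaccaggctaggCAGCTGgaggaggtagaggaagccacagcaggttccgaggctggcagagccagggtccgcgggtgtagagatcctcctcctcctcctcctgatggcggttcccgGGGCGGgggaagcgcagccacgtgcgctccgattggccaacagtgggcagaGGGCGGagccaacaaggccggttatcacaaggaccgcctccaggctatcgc
Kcnj3: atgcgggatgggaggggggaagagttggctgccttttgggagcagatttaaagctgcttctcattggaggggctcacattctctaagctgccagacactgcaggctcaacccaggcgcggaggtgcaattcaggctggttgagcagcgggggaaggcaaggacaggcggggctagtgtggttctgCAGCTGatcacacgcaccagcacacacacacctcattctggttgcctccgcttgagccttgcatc
Kcnj6: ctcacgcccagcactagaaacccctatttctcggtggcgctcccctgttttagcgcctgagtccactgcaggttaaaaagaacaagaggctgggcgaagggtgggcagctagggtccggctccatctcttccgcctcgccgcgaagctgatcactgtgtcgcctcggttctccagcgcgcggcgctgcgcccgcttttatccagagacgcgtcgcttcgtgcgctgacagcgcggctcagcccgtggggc
The Kcnj2 stretch holds 1 E-box and 2 GC boxes, and the Kcnj3 stretch an E-box alone. No match to these letters was found in the stretches of Kcnt2 and Kcnj6, which have a GC content of 61.6% and 64.0%. Over windows from 250 bases before to 50 bases after the annotated gene start, the ratio of observed to expected CpG was 1.05 at Kcnj6, 0.56 at Kcnt2, 0.54 at Kcnj2 and 0.41 at Kcnj3.

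Such windows were read for all 86 genes. Potassium channel genes with a window peak in all 3 lists (44 genes) had a median CpG ratio of 0.57 and a median GC content of 61.8%. For the 11703 genes of any kind with a peak in all 3 lists these medians were 0.77 and 61.0%. A GC box was found in 26 of the 44 windows (59.1%) and in 66.1% of the 11703, and the E-box CAGCTG in 6 (13.6%) and in 14.6%. Open potassium channel promoters thus had a lower median CpG ratio than open promoters in general at a similar GC content. The 32 potassium channel genes without a peak in the window had a median CpG ratio of 0.24, and the 7886 such genes of any kind 0.18.

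The voltage-gated pore genes were taken class by class. All 8 Kv1 genes had a WT promoter peak, but they are short and held only 21 WT peaks and 20 mutant peaks. Kcna4 had the tallest Kv1 promoter, at 61 tags in WT and 75 in mutant. Kcna1 and Kcna2 encode the main axonal subunits, and the Kcna2 promoter stood at 36 and 44 tags. At Kcna1 the tallest promoter peak lay at a different site in each list, with 21 tags in WT and 20 in mutant. That WT peak of Kcna1 overlapped no mutant peak. Of the 21 WT peaks 2 had no overlapping mutant peak (9.52%, 2.65 to 28.9%, against 14.5% in all genes under 100 kb), and 1 mutant peak of 20 lacked a WT partner (5%, 0.888 to 23.6%, against 21.9%). Both intervals include the share of all such genes. The delayed rectifier gene Kcnb2, of the Kv2 group, had 27 WT peaks and 29 mutant peaks, with 68 promoter tags in WT and 79 in mutant.

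Kv3 genes encode the channels of fast-spiking neurons, and all 4 had a promoter peak in each list. Kcnc1 had 37 promoter tags in WT and 31 in mutant. Over the 26 Kv3 regions with a peak in both lists, 18 were lower in mutant and the median log2 ratio was -0.22, the lowest of the 10 classes. By gene, 6 of 7 Kcnc1 regions and 7 of 13 Kcnc2 regions were lower. The 10 silent Kv genes, whose subunits only work together with other Kv subunits, held 26 WT peaks and 28 mutant peaks. Kcnf1 (33 and 46 promoter tags) and Kcnv1 (44 and 44) each had their promoter peak and nothing else in WT and mutant.

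Kv7 genes include those for the channels of the slow M-current, and all 5 had a promoter peak in each list. The class held 100 WT peaks and 111 mutant peaks, of which Kcnq5 alone held 32 and 46. The promoter of Kcnq3, a main subunit of neurons, had 67 tags in WT and 73 in mutant. An intronic region of Kcnq3, 47.3 kb from the gene start, was among the most open of the family, with 93 tags in WT and 97 in mutant. The 8 EAG, ERG and ELK genes (Kcnh1 to Kcnh8) held 103 WT peaks and 121 mutant peaks. The tallest region of any potassium channel gene in WT lay 1.5 kb upstream of Kcnh8, with 98 tags in WT and 94 in mutant, while the Kcnh8 promoter had 52 tags in both. The Kcnq3 region and the Kcnh8 upstream region were picked after their values were seen.

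Inward rectifier and leak channel genes did not all have a promoter peak. Of 15 inward rectifier genes, 10 had a promoter peak in WT and 10 in mutant. Over all autosomal protein-coding genes the shares were 68.0% and 68.7%, so these counts do not set the inward rectifiers apart. The G protein-gated subunits of neurons were open: the Kcnj6 promoter had 52 tags in WT and 48 in mutant, that of Kcnj9 48 and 59, and Kcnj3 was given above. Kcnj5, the subunit that partners Kcnj3 in the heart, had 14 tags in both. Kcnj10, the inward rectifier of astrocytes, had 63 and 60 promoter tags and 7 peaks in each of the 3 lists. Kcnj1 and Kcnj13, known from kidney and transporting epithelia, had no peak in any list.

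Of 14 two-pore-domain genes, 8 had a promoter peak in WT and 10 in mutant, beside 68.0% and 68.7% of all autosomal protein-coding genes. The leak channel genes of granule cells were open away from their start sites. Kcnk9 had no peak within 500 bp of a start in any list, but peaks 1.4 kb and 3.3 kb upstream with 30 and 33 tags in WT and 33 and 38 in mutant, and an intronic peak 29.1 kb inside the gene with 44 and 47 tags. Kcnk3 had intronic peaks 3.2 kb and 18.4 kb from its start with 48 and 50 tags in WT and 43 and 58 in mutant. Its promoter peak was called in mutant alone, at a rank of 7.49. Kcnk1, another leak channel of granule cells, had 25 promoter tags in WT and 31 in mutant. The counting interval of the mutant to WT ratio includes no change at each of these sites with a peak in both lists.

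The 8 genes of calcium- or sodium-activated channels held 123 WT peaks and 143 mutant peaks, the most of any class. Kcnma1, the large-conductance channel opened by calcium and voltage, is the longest of them at 725 kb and had the most peaks of the family, with 51 WT, 35 het and 54 mutant peaks. Its most open regions lay in introns 291 kb and 521 kb from the gene start, with 65 and 61 tags in WT and 55 and 58 in mutant. The auxiliary genes ranged from widely open to closed. Kcnab1 and Kcnab2 (73 promoter tags in WT, 66 in mutant) were among the most open of the family. Kcne2 and Kcnrg had no peak in any list. Kcnmb3, a beta subunit of the Kcnma1 channel, had 3 WT peaks of 8 to 10 tags and none in het or mutant. Its relative Kcnmb4, the neuronal beta subunit, kept its promoter peak (48 tags in WT, 50 in mutant) but had 7 WT peaks and 2 mutant peaks. The 5 Kcnmb4 peaks without a mutant peak had 9 to 21 tags and ranks of at most 31.1. Besides the 4 genes named so far, Kcnk7 and Kcnk18 had no peak in any list, and Kcnj14 and Kcnj15 had peaks in mutant alone.

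**Figure D2:**
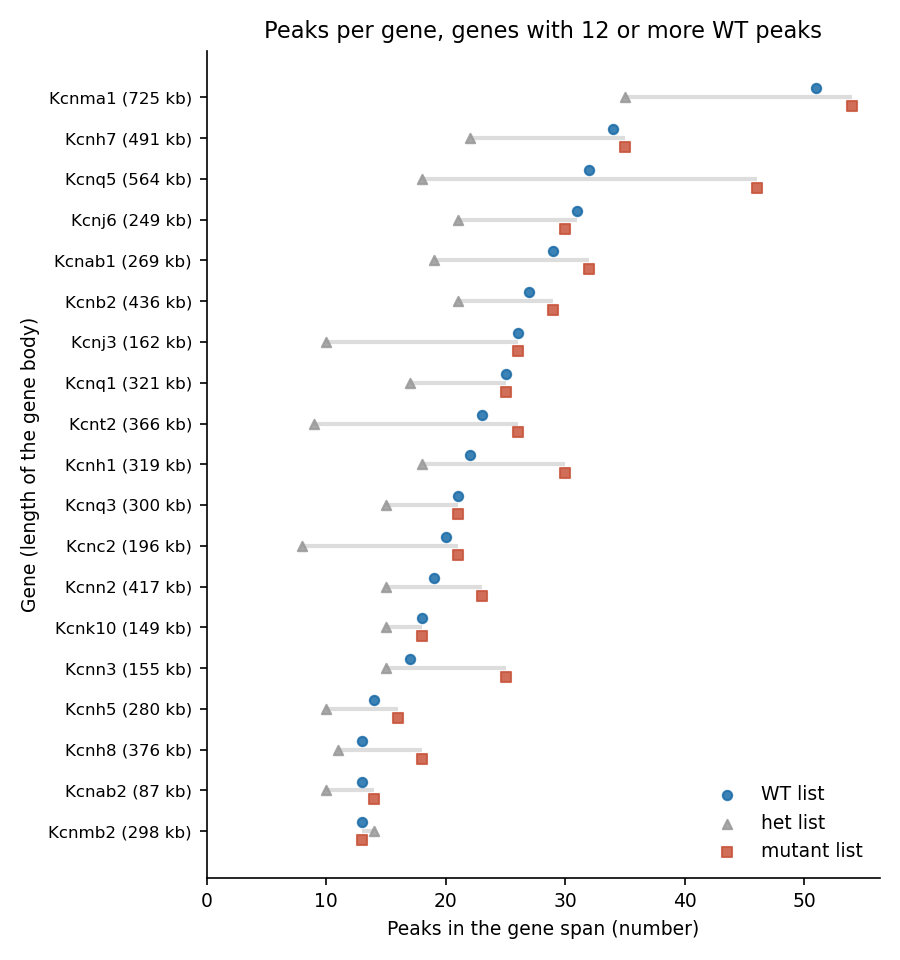
Number of peaks in the gene span in the WT, het and mutant lists, for the 19 potassium channel genes with 12 or more WT peaks, with the length of each gene body in kb. WT and mutant counts lie close together for most genes, and the widest gap between them is at Kcnq5, with 32 and 46.

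How many peaks appeared in 1 list and not in the other was asked next. Of the 698 WT peaks of potassium channel genes, 167 overlapped no mutant peak (23.9%, 20.9 to 27.2%), against 18.7% of WT peaks in all autosomal protein-coding genes. Of the 766 mutant peaks, 233 overlapped no WT peak (30.4%, 27.3 to 33.8%), against 26.9%. Unpaired peaks were thus seen in both directions, and more often among mutant peaks, as in the lists as a whole (22.8% of the WT list, 30.7% of the mutant list). The mutant list is the longer one, and when all lists were cut to the same number of peaks the order turned, to 18.9% of WT and 16.99% of mutant peaks (all genes 17.1% and 16.8%). By gene, 35 of the 86 had more mutant than WT peaks, 17 had more WT peaks, and 28 had as many of each, besides the 6 with none. This split was not counted over all protein-coding genes, whose spans held 82280 WT peaks and 94074 mutant peaks, so it is not read as particular to these genes.

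These unpaired peaks were weak. Their median pileup was 10 tags in WT and 11 in mutant, and that of paired peaks was 21 and 22. At WT ranks up to 25, 62.1% of the potassium channel peaks had no mutant peak (54.4 to 69.2%, background 54.0%), at ranks of 25 to 50 29.2% (background 27.2%) and at 50 to 75 2.5% (background 3.52%). At ranks above 75 none of 161 peaks was unpaired, which allows a share of up to 1.86% when 3 counts are taken as the limit, or 2.33% by the Wilson interval, and the background was 0.0337%. The mutant list showed the same fall, from 71.9% at ranks up to 25 (background 66.6%) over 43.4% (background 42.9%) and 4.35% (background 9.50%) to 0 of 176 at the top, which allows a share of up to 1.70% by 3 counts or 2.14% by the Wilson interval (background 0.123%). Where the -log10 q reached 5, 19 of 410 WT peaks were unpaired (4.63%, 2.99 to 7.12%), as were 42 of 477 in mutant (8.81%, 6.58 to 11.7%), and the shares for all genes were 4.66% and 10%. At that strength potassium channel genes did not stand apart from other genes.

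**Figure D3:**
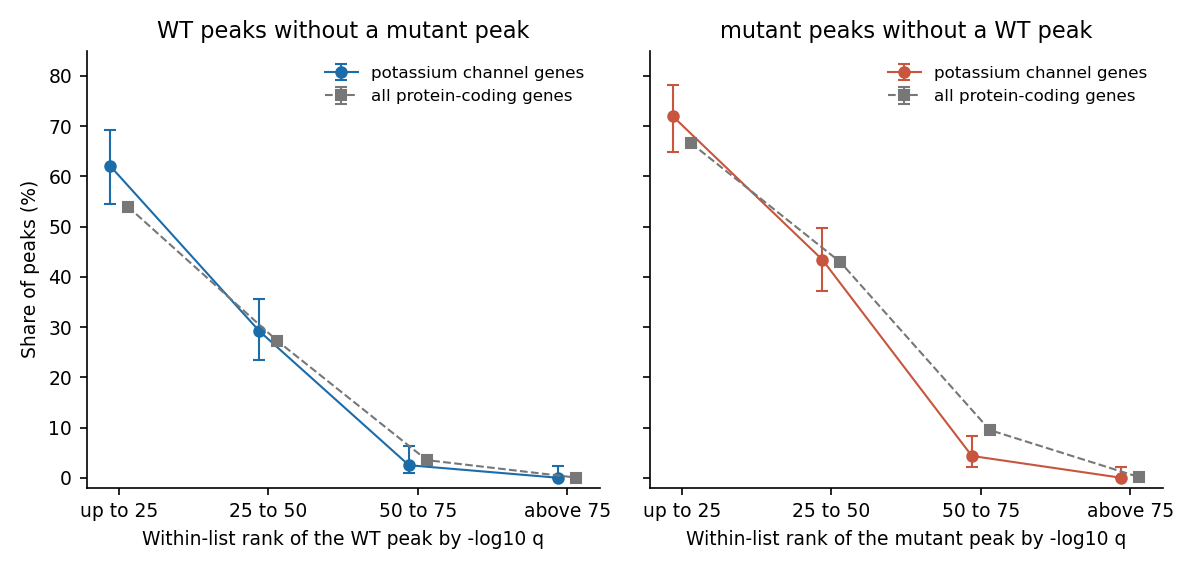
Share of peaks in % without an overlapping peak in the other list, by the rank of the peak within its own list, with WT peaks on the left and mutant peaks on the right. Points with bars are potassium channel genes with Wilson 95% intervals, grey squares all autosomal protein-coding genes. The shares fall from 62.1% and 71.9% at ranks up to 25 to 0 above 75.

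Gene length moved with this share. The 19 potassium channel genes of 100 kb or more held 446 of the WT peaks, 27.6% of them without a mutant peak (23.6 to 31.9%), against 22.0% in all genes of that length. The 67 shorter genes held 252 WT peaks, 17.5% of them unpaired (13.3 to 22.6%, background 14.5%). In the mutant list the shares were 35.7% in the long genes (31.7 to 40.0%, background 30.8%) and 20.4% in the shorter ones (16.0 to 25.6%, background 21.9%). Peaks of long genes were also weaker, with a median WT rank of 42.3 against 53.9. Among peaks whose -log10 q reached 5, the unpaired shares were 5.71% in the long genes (3.43 to 9.36%, background 5.99%) and 3.03% in the shorter ones (1.30 to 6.90%, background 3.24%) for WT, and 10.8% (7.69 to 14.9%, background 11.7%) and 5.82% (3.28 to 10.1%, background 8.11%) for mutant. The long genes thus had the higher share at this strength too, with intervals that overlap those of the shorter genes, and lay close to other genes of their length.

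Among genes with 10 or more WT peaks, the sodium-activated channel gene Kcnt2 had the highest share without a mutant peak, 12 of 23 (52.2%), where the share over all genes of 100 kb or more was 22.0%. Kcnq5 followed with 13 of 32 (40.6%), then Kcnh7 with 13 of 34 (38.2%), Kcnk2, a mechanically gated leak channel, with 4 of 11 (36.4%) and Kcnq1 with 8 of 25 (32.0%). Among genes with 10 or more mutant peaks, the share without a WT peak was highest in Kcnq5, 27 of 46 (58.7%), against 30.8% over all genes of that length, followed by Kcnt2 with 15 of 26 (57.7%), Kcnh8 with 9 of 18 (50%), Kcnk2 with 6 of 13 (46.2%) and Kcnh7 with 14 of 35 (40.0%). The leading genes of both rankings overlapped in Kcnt2, Kcnq5, Kcnh7 and Kcnk2. They had unpaired peaks in either direction rather than a net loss or gain, apart from Kcnq5, where mutant peaks outnumbered WT peaks by 46 to 32. Kcnk13, with 10 WT peaks, had a mutant peak for each of them.

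Kcnq5 (ENSMUSG00000028033.16) lies on the minus strand of chromosome 1 from 21398403 to 21961942, 564 kb long. Its 27 unpaired mutant peaks had 7 to 13 tags, and the 13 unpaired WT peaks 8 to 13. Its promoter had 59 tags in WT and 66 in mutant, and an intronic region 550 kb from the gene start had 85 and 100. Another intronic region, 528.5 kb from the start, was higher in mutant and is described with the regions that differed in height. In Kcnma1 the 16 unpaired WT peaks had 8 to 17 tags and the 17 unpaired mutant peaks 8 to 22, beside paired peaks of up to 65 and 58 tags.

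**Figure D4:**
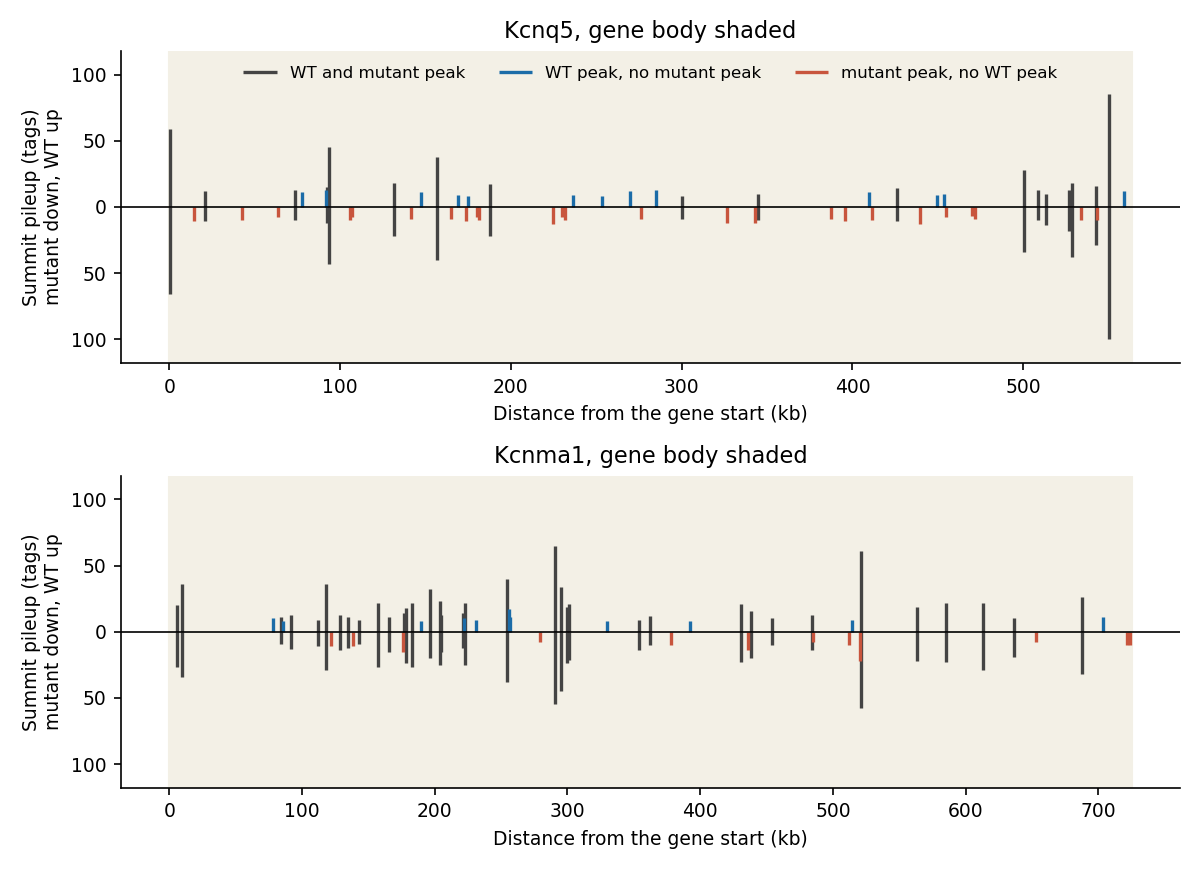
Accessible regions along Kcnq5 and Kcnma1 by distance from the gene start in kb, with the WT summit pileup in tags drawn upwards and the mutant pileup downwards. Dark lines have peaks in both lists, blue lines in WT without mutant and red lines in mutant without WT. Blue and red lines reach at most 22 tags and are spread along both genes, while the tall regions are dark.

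The study lists 4 potassium channel genes among those with lower RNA after Chd7 loss: Kcnh8 and Kcnj3 in mutant GNPs, and Kcnj3, Kcnq5 and Kcnab1 in cultured granule neurons, where RNA was lower both without Chd7 and under a Top2b inhibitor. Those lists were made by the study and were used here for names alone. All 4 genes exceed 100 kb. Kcnj3 had 26 WT peaks, 10 het peaks and 26 mutant peaks, and 8 of the WT peaks and 7 of the mutant peaks were unpaired. Kcnab1 had 29, 19 and 32 with 8 unpaired in WT and 11 in mutant, and Kcnh8 had 13, 11 and 18 with 3 unpaired in WT and 9 in mutant. Kcnq5 was given above. Over their regions with a peak in both lists the median log2 ratio was -0.07 for Kcnj3 (14 regions), 0.01 for Kcnab1 (20 regions), -0.09 for Kcnh8 (9 regions) and 0.08 for Kcnq5 (18 regions). The regions open in both lists therefore had median ratios near 0 in each of the 4 genes, while Kcnq5 and Kcnh8 had more peaks in the mutant list. The strongest unpaired WT peak in any of the 4 ranked 42.3, and the strongest unpaired mutant peak, in Kcnab1, 61.1.

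Heights were then compared region by region. Of the 841 regions, 487 had a peak in WT and in mutant, and their median log2 ratio of mutant to WT was -0.01 (-0.06 to 0.04 by the order statistics of the regions). Lower in mutant by any amount were 244 (50.1%, background 50.3%), at least 1.5-fold lower 19 regions (3.90%, background 4.34%) and at least 1.5-fold higher 21 (4.31%, background 4.91%). Where WT and mutant tags summed to 50 or more, 201 regions were left, of which 6 were at least 1.5-fold lower (2.99%, 1.38 to 6.36%, background 2.09%) and 2 higher (0.995%, 0.273 to 3.56%, background 1.70%). The median ratio of the 201 was -0.06 and that of all such genic regions -0.02. Changes of height were therefore about as frequent in potassium channel genes as in protein-coding genes in general.

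For 6 of the 487 regions the counting interval of the ratio left out no change, 3 lower (0.616%, background 0.602%) and 3 higher (0.616%, background 0.470%). The lower ones lay in Kcnh7, Kcnk10 and Kcnk13. An intronic region of Kcnh7, an ERG channel, had 31 tags in WT and 14 in mutant, a log2 ratio of -1.24 (-2.26 to -0.28), and within-list ranks of 82.4 in WT and 45.6 in mutant. An intronic region of Kcnk10, a two-pore channel gated by stretch and lipids, had 25 and 12 tags, a log2 ratio of -1.15 (-2.28 to -0.10), and ranks of 75.2 and 35.6. A region over a coding exon of Kcnk13, another two-pore channel, had 36 and 20 tags, a log2 ratio of -0.94 (-1.81 to -0.11), and ranks of 84.7 and 58.8.

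The higher regions lay in introns of Kcnq5, Kcnc2 and Kcnn2. The Kcnq5 region had 18 tags in WT and 38 in mutant, a log2 ratio of 0.99 (0.14 to 1.88), and ranks of 57.8 in WT and 86.9 in mutant. The Kcnc2 region had 7 and 19 tags, a log2 ratio of 1.35 (0.04 to 2.84), and ranks of 1.38 and 68.4. The Kcnn2 region had 9 and 25 tags, a log2 ratio of 1.38 (0.24 to 2.67), and ranks of 10.4 and 76.1. All 6 regions also had a het peak, whose strength was not compared with the other lists. With 487 regions compared at a 95% interval, and shares close to those of all genes, the number of such regions did not stand apart from that in protein-coding genes in general.

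**Figure D5:**
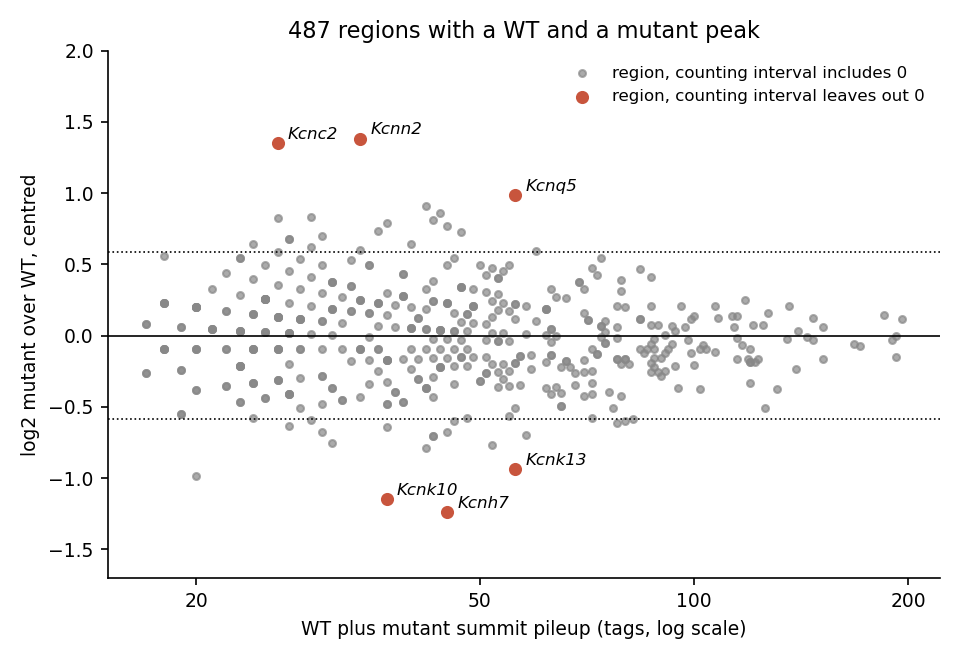
Centred log2 ratio of mutant to WT height against the summed WT and mutant pileup in tags on a log axis, for the 487 potassium channel regions with both peaks. Dotted lines mark 1.5-fold. The 6 red regions are those whose counting interval leaves out 0, with Kcnh7, Kcnk10 and Kcnk13 below and Kcnq5, Kcnc2 and Kcnn2 above, and the spread narrows as the pileup grows.

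The 200 bases around the WT summit of 5 of these regions are shown, since their counting intervals left out no change, and that of Kcnn2 is not shown. They are given on the plus strand of GRCm38.p6, with the same motifs in capitals. They come from chr2:63094247-63094446 in Kcnh7, chr12:98536159-98536358 in Kcnk10, chr12:100061140-100061339 in Kcnk13, chr1:21433381-21433580 in Kcnq5 and chr10:112400850-112401049 in Kcnc2.
Kcnh7: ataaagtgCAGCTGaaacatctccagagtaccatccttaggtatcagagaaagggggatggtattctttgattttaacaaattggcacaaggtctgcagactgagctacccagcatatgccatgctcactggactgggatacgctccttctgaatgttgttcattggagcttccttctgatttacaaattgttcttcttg
Kcnk10: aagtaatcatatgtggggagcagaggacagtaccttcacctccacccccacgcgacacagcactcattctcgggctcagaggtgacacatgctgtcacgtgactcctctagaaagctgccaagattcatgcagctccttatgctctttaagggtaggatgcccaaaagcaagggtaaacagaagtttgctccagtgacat
Kcnk13: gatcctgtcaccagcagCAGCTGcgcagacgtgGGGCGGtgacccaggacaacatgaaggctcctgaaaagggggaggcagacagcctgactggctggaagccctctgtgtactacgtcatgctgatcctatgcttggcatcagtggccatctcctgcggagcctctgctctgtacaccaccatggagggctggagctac
Kcnq5: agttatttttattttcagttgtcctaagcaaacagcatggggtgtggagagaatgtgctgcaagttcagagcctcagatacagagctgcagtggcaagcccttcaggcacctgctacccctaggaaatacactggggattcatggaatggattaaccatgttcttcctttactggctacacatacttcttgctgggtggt
Kcnc2: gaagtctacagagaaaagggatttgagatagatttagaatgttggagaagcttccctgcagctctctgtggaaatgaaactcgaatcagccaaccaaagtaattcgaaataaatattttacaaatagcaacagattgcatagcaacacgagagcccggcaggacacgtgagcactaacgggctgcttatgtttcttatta
An E-box was found in Kcnh7 and Kcnk13, and a GC box in Kcnk13 as well. The stretches of Kcnk10, Kcnq5 and Kcnc2 hold none of the motifs. Over the 487 regions, the 200 bases around the summit held CAGCTG in 27.7% and the further E-box CAGATG in 30.2%, and over 108677 autosomal regions with both peaks in 25.2% and 29.5%. A GC box was found in 14.0% and 13.1%, so that no motif was more than a few percentage points apart.

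Other regions with a summed pileup of 50 or more and the lowest ratios were intronic regions of Kcnma1 (32 tags in WT, 20 in mutant, log2 ratio -0.77), Kcnq3 (35 and 23, -0.70), Kcnc2 (46 and 32, -0.61) and Kcnc1 (47 and 33, -0.60). Those with the highest ratios after Kcnq5 lay in introns of Kcnj10 (23 and 37, 0.60), Kcnn3 (29 and 45, 0.54) and Kcnb2 (20 and 30, 0.49) and in a coding exon of Kcnh8 (22 and 33, 0.49). The counting interval of each of these 8 includes no change. The strongest WT peak without any mutant peak within 300 bp lay in an intron of Kcnt2, 42.1 kb from the gene start, with 16 tags and a rank of 60.7. The next was in an intron of Kcnj6, with 28 tags and a rank of 59.6. The strongest mutant peak without a WT peak within 300 bp lay in an intron of Kcnh6, 18.8 kb from the gene start, with 18 tags and a rank of 64.4, followed by an intron of Kcnab1 with 16 tags and a rank of 61.1. None of these 4 had a het peak within 300 bp. The next 3 WT peaks lay in Kcnk10, Kcnh5 and Kcnma1 at ranks of 49.5 to 55.0, and the next 3 mutant peaks in Kcnh1, Kcnk15 and Kcnma1 at ranks of 53.4 to 59.2.

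For the regions by list, the het list was read for presence alone. Peaks in all 3 lists were found at 389 of the 841 regions (46.3%, 42.9 to 49.6%), against 51.3% of regions in all protein-coding genes. WT and mutant shared 98 regions without het (11.7%, background 12.6%), 116 were in WT alone (13.8%, background 10.9%), 165 in mutant alone (19.6%, background 17.9%) and 34 in het alone (4.04%, background 2.84%). Het and mutant shared 26 without WT (3.09%, background 2.94%), and WT and het shared 13 without mutant (1.55%, background 1.48%). Of the 167 WT peaks without a mutant peak, 22 overlapped a het peak (13.2%, 8.86 to 19.1%, background 14.8%). Of the 233 mutant peaks without a WT peak, 36 did (15.5%, 11.4 to 20.7%, background 16.7%). Most peaks that were unpaired between WT and mutant were thus also absent from the shorter het list, whichever of the 2 genotypes they came from.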

How the data were processed

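ATAC-seq libraries of P7 GNPs were pooled by genotype by the authors, and 3 peak lists on mm10 were used. The submitters' processing notes name Trim Galore 0.4.1, STAR 2.5.0b, Bowtie 1.0.0, Picard 1.139 and MACS2 2.1.0.20150731. Per the file headers, MACS2 ran without a control at a q-value cutoff of 0.05, on STAR alignments for WT and mutant and, for het, on bowtie alignments with a shift and a fixed extension. The study's methods describe the latter for all ATAC-seq libraries. Summit pileup is the deposited signal, in whole tags not scaled to depth. Fold enrichment is a ratio the authors' peak caller gave and served as an alternative to pileup. The -log10 q values deposited by the authors ranked peaks within a list.

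Genes came from GENCODE vM21. Peaks overlapping by at least 1 bp counted as shared. Pileup was divided by the number of tags, and log2 ratios of mutant to WT were centred by subtracting 0.07, the median of 108684 autosomal regions. Ratio intervals are exact binomial (Clopper-Pearson) on the summed pileup, and that of the median is from order statistics. Promoter sequences in the RefSeq table matched 62 of the 86 genes, so base composition was read from the GRCm38.p6 genome for all 86. The code of the list comparison was checked on simulated peaks whose overlaps were fixed in advance. That check does not bear on how weak peaks near the calling cutoff pair. Named genes were those in the study's lists, those known from granule neurons, the 5 leading genes by number of peaks, unpaired share and promoter height, and those without a peak. Some genes of this rule are not reported here. Named regions were the 5 lowest and 5 highest ratios and the strongest unpaired peaks. The genes, lists and the split at 100 kb were chosen with earlier results of these data known. All pooled columns were used, and 0 were left without a group. Calculations used python 3.11.15, numpy 2.4.6, pandas 2.3.3 and scipy 1.17.1.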

Additional observations from a re-analysis of the deposited data

How the results depend on the processing

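Of 45 alternative values computed, 27 stayed close to those reported and 18 moved. WT peaks lacking a mutant partner made up 38.8% when 50% of each peak had to overlap (all genes 31.5%), 19.1% when a mutant peak within 300 bp counted as shared (all genes 15.2%), 4.63% where the -log10 q reached 5 (all genes 4.66%) and 18.9% with all lists cut to 106974 peaks (all genes 17.1%). Under the same settings mutant peaks lacking a WT partner made up 44.4%, 25.7%, 8.81% and 16.99% (all genes 40.1%, 22.7%, 10.02% and 16.8%). With equal list lengths the WT share was therefore the higher of the 2. The shares of unpaired peaks with a het peak were 21.1% in WT and 23.8% in mutant where the -log10 q reached 5 (all genes 25.1% and 25.5%). With equal lists they were 34.8% and 47.4% (all genes 38.7% and 38.9%). The share of genes with a WT promoter peak was 66.3% where the -log10 q reached 5. Without centring, the median log2 ratio was 0.064 and 12 regions were at least 1.5-fold lower. With fold enrichment in place of pileup 8 regions were lower, and with a summed pileup of 50 or more 6 were lower and 2 higher. The cause of these moves was not tested, apart from the smaller number of peaks or regions that the stricter settings leave.

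No paired analysis was possible because each list pools the libraries of its genotype. Leaving out a replicate was not possible for the same reason. Depth limits the single regions: of the 19 lower and 21 higher regions past 1.5-fold, the counting interval left out no change in 3 and 3.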

Other observations

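Genes that work beside these channels, taken from a list chosen with earlier results of these data known, are given beside the shares of all protein-coding genes, 18.7% of WT and 26.9% of mutant peaks unpaired (22.0% and 30.8% in genes of 100 kb or more). The 8 genes of the Kv4 complex (Kcnd2, Kcnd3, Kcnip1 to Kcnip4, Dpp6 and Dpp10) all had a promoter peak in each list. They held 265 WT peaks, 70 of them without a mutant peak (26.4%, 21.5 to 32.0%), and 311 mutant peaks, 108 of them without a WT peak (34.7%, 29.7 to 40.2%). Kcnd2, a Kv4 pore gene, had 14 of 27 WT peaks unpaired, and Kcnd3 had 6 of 35. The 4 HCN genes, which encode the pacemaker cation channels, held 47 WT peaks and 64 mutant peaks, with 19.1% and 35.9% unpaired. The 8 genes for clustering and trafficking partners of potassium channels, such as Cntnap2, Ank3 and Dlg2, held 349 WT peaks (25.5% unpaired) and 396 mutant peaks (32.6% unpaired), and all had promoter peaks in each list.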
